A study of Mus musculus with 12 samples.

Results

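The comparison described here is between basal mammary epithelial cells of MMTVRANK mice and basal cells of WT mice, in 6 of the 12 RNA sequencing libraries of the series. Libraries were chosen by their titles: 3 are titled MMTVRANK basal and 3 WT basal. The other 6 libraries are luminal cells of the same genotypes, and they enter here where the spread between libraries or a luminal level is needed. MMTVRANK mice carry a transgene in which the promoter of the mouse mammary tumour virus, active in mammary epithelium, drives the receptor Rank. WT mice carry no such transgene, and the labels list no treatment for either group. Strain, age and the number of animals behind a library are not given in the sources used here, so every p-value measures the spread between these libraries, which may be technical.

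Rank, encoded by Tnfrsf11a, is a receptor of the tumour necrosis factor family. Its ligand Rankl, encoded by Tnfsf11, recruits Traf adaptors to it and switches on the NF-kB transcription factors, while the soluble decoy receptor osteoprotegerin, encoded by Tnfrsf11b, takes the ligand away. In the mammary gland, hormone-sensing luminal cells make Rankl in response to progesterone, and basal and luminal progenitor cells carry the receptor. Basal cells form the outer layer of the ducts, contract during lactation, anchor the epithelium to the basement membrane and contain cells with stem cell activity in transplants.

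Of the WT replicate 2 libraries, the one titled basal carries luminal as its cell subtype in the labels, and the one titled luminal carries basal. The library titled WT basal replicate 2 held a summed level of 33052 CPM for 23 contractile genes of basal cells, where CPM is a gene's counts scaled to a common library size after normalisation. The other basal libraries held 31464 to 41629 CPM and the luminal libraries 1133 to 2451 CPM. Its level thus lay with the basal libraries, as its title has it. This library also stands apart in other genes, described below. Some of the results that rest on it are also given without it, and others only with it. Total counts of the 6 basal libraries lay between 12459547 and 15007746, with 20911 to 26410 genes counted. Over 9325 well expressed genes, the root mean square log2 distance was 0.42 to 0.50 between MMTVRANK basal libraries and 0.62 to 0.75 between WT basal libraries. Between the genotypes it was 0.52 to 0.74, so the 3 WT libraries differed from each other as much as they differed from the MMTVRANK libraries.

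Of 18236 genes tested, 1 fell and none rose in MMTVRANK basal cells at an adjusted p under 0.05 (quasi-likelihood test of edgeR, Benjamini-Hochberg adjusted, as for every adjusted p of a gene below unless another tool is named). This is 0.00548% of the genes. An unadjusted p under 0.05 was reached by 986 genes (5.41%), of which 422 were higher (2.31%) and 564 lower (3.09%) in MMTVRANK. All 3 libraries of one genotype lay above all 3 of the other for 2029 genes (11.1%), with MMTVRANK higher for 1205 (6.61%) and lower for 824 (4.52%). Log2 fold changes, always MMTVRANK minus WT, were above 0 for 50.5% of the genes, with a median of 0.00. The number of calls depends on the tool: DESeq2 on the same counts called 66 genes, 9 higher and 57 lower, while limma-voom called none, with 1009 genes at an unadjusted p under 0.05. With the 6 basal libraries fitted alone, edgeR called none and had 878 genes at an unadjusted p under 0.05. With 1 library left out the count was 0 without MMTVRANK basal replicate 1 or 2, 2 without WT basal replicate 1, 8 without WT basal replicate 2 and 6 without WT basal replicate 3, and it was 4 without both libraries labelled WT replicate 2.

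**Figure D1:**
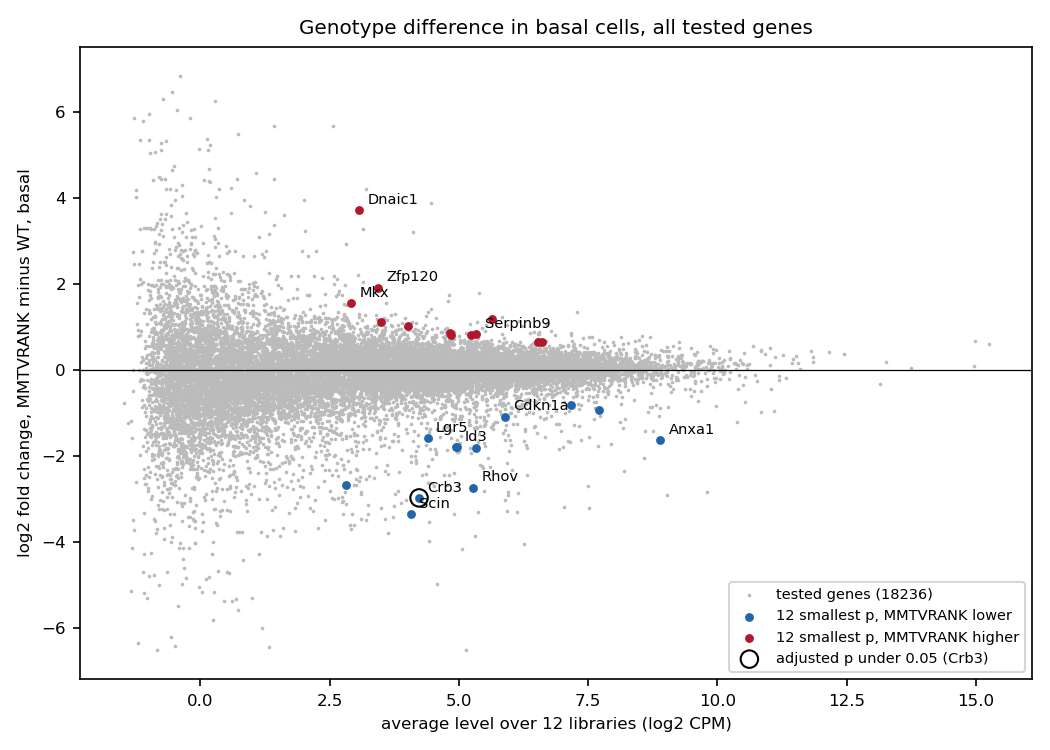
Log2 fold change in basal cells (vertical axis) against the average level over the 12 libraries (horizontal axis, log2 CPM) for 18236 tested genes. The 12 genes with the smallest p in each direction are coloured, and Crb3, ringed at −2.97, is the 1 gene past the threshold.

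The gene that fell was Crb3, which encodes a small transmembrane protein of the Crumbs complex, the machinery that marks the apical side of epithelial cells and positions their tight junctions. In GRCm38.p6 the gene spans bases 57059105 to 57065918 of chromosome 17, plus strand, and its 1564 bp of exons share no base with another annotated exon. MMTVRANK basal replicates 1, 2 and 3 held 0.302, 0.337 and 0.469 CPM, and WT basal replicates 1, 2 and 3 held 2.86, 2.66 and 3.33 CPM. Every MMTVRANK library lay far below every WT library, and within each genotype the 3 libraries were close. These levels rest on few reads, 4, 4 and 6 counts in MMTVRANK and 37, 37 and 39 in WT. The log2 fold change was −2.97 (SE 0.29, n = 3 per group, adjusted p = 0.00351), a level 7.81-fold lower in MMTVRANK. From the summed counts, 14 against 113, the level in WT was 7.93-fold that in MMTVRANK with a 95% exact binomial interval of 4.54 to 15.0, which covers counting error only.

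Crb3 is mainly a luminal transcript in these libraries, at 40.7 ± 8.37 CPM in WT luminal and 30.4 ± 2.87 CPM in MMTVRANK luminal cells (SD, n = 3). There the log2 fold change was −0.42 and did not pass (adjusted p = 0.486). The basal effect minus the luminal effect was −2.55 and did not pass either (adjusted p = 0.0944), so a difference between the populations was not shown. The call held in 17 of 23 alternative analyses that gave an adjusted p, DESeq2 included (adjusted p = 2.04e-06). It ended without MMTVRANK basal replicate 1 (adjusted p = 0.0601) or replicate 2 (adjusted p = 0.0535), and under limma-voom (adjusted p = 0.715). It also ended with the basal libraries fitted alone, where the SE was 0.70 and the adjusted p 0.866. The main fit uses 1 spread per gene for basal and luminal libraries, and Crb3 had 464 to 706 counts in the luminal ones. Without the libraries labelled WT replicate 2 the log2 fold change was −3.03 (adjusted p = 0.00717).

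The Crb3 promoter is shown because Crb3 is the 1 gene called. It was searched for the E-box CAGGTG, read on the other strand as CACCTG, to which the Snail family of repressors is known to bind. The RefSeq start used lies inside the counted span of Crb3, which begins at base 57059105. Whether these cells use this start was not tested. The 250 bases before it (GRCm38.p6, chr17:57061951-57062200, plus strand) are given 5′ to 3′ with each E-box in capitals.
Crb3 promoter: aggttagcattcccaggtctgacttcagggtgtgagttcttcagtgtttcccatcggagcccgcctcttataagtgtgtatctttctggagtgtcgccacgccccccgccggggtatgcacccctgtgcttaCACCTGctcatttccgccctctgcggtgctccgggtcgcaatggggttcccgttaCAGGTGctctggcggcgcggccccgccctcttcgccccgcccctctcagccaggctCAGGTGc
Searched on both strands with no overlap between matches, it holds 3 E-boxes, whose first bases lie 118, 63 and 7 bases before the start. At least 1 such E-box stood in 17.2% of 32851 RefSeq promoter windows of the same length, and 3 or more in 0.247%. Of the 12 lower genes named here, 8 have a promoter in the table and 3 of the 8 hold the motif in any promoter window. Of the 12 higher genes the numbers were 3 of 11, and over all 27025 genes with a promoter the share was 19.4%. No binding was measured in these samples. Snai2, the Snail family member typical of basal cells, stood at 127, 129 and 107 CPM in MMTVRANK replicates 1, 2 and 3, and at 67.9, 121 and 34.2 CPM in WT replicates 1, 2 and 3. The WT libraries spread widely and overlap the MMTVRANK libraries (log2 fold change 0.71, SE 0.47, adjusted p = 0.977). The repressor genes Zeb1 and Zeb2 went the other way, at −0.92 and −1.64, also with overlapping groups. The part of any of these factors in the Crb3 result was not tested.

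Tnfrsf11a itself did not separate the genotypes in basal cells. Its level was 414, 129 and 218 CPM in MMTVRANK replicates 1, 2 and 3, against 73.5, 158 and 65.2 CPM in WT. Of the latter, the library labelled WT basal replicate 2 lay above MMTVRANK basal replicate 2, against its label. The luminal library labelled WT replicate 2 was high as well, at 90.6 CPM beside 6.35 and 9.89 CPM in the other WT luminal libraries and 155 to 319 CPM in MMTVRANK luminal cells. All directions here take the labels as they stand. The gene lies on chromosome 1 from 105780718 to 105847981, and the counts do not tell transcripts of the transgene from endogenous ones. The log2 fold change was 1.36 (SE 0.85, n = 3 per group, adjusted p = 0.977), and 1.88 (adjusted p = 0.483) without the libraries labelled WT replicate 2. Without a filter on low counts the adjusted p was 5.86e-07, and in the other 23 alternatives it did not pass.

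The ligand was nearly silent in the basal libraries: Tnfsf11 was listed at 0 in 4 of the 6, with 1.41 CPM in MMTVRANK replicate 3 and 1.01 CPM in WT replicate 2. The decoy receptor gene Tnfrsf11b stood at 37.1, 52.4 and 64.4 CPM in MMTVRANK and 37.8, 50.5 and 29.0 CPM in WT replicates 1 to 3, overlapping groups (log2 fold change 0.39, adjusted p = 1). Of 28 genes of the Rank pathway, all tested, none passed, 11 had values above 0, and the median log2 fold change was −0.17 (−0.017 without WT basal replicate 3). Within the pathway, 4 members lay higher (6.61% of all genes) and 3 lower (4.52% of all genes) in every MMTVRANK library than in every WT library. Lgr4, an R-spondin receptor that also binds Rankl, was among the higher ones, at 258, 192 and 234 CPM against 183, 153 and 161 CPM (log2 fold change 0.47, adjusted p = 0.841). Ikbkg, the regulatory subunit of the IkB kinase, was another (0.61, adjusted p = 0.786), and 5.15% of its exons overlap another gene.

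Both NF-kB inhibitors with the smallest p in the pathway were on the lower side. Nfkbia, which encodes IkB-alpha and is itself a target of NF-kB, stood at 79.3, 119 and 107 CPM in MMTVRANK and 149, 254 and 125 CPM in WT replicates 1 to 3. The groups do not overlap, but the gap between MMTVRANK replicate 2 and WT replicate 3 is small and WT replicate 2 is the highest (log2 fold change −0.79, SE 0.24, adjusted p = 0.688). Nfkbib, a second inhibitor, had −0.57 (adjusted p = 0.738). Of 31 NF-kB target genes tested, none passed, 20 had values below 0 and the median was −0.38, and −0.029 without WT basal replicate 3. An unadjusted p under 0.05 was reached by 5, all lower, as by 3.09% of all genes. They included Tnf, the cytokine that gives the receptor family its name, with values between 0.0755 and 0.421 CPM in MMTVRANK and between 0.617 and 2.52 CPM in WT. Its log2 fold change of −2.52 (SE 0.62, adjusted p = 0.652) rests on levels of a few counts, as does that of the lymphotoxin gene Ltb. The leukaemia inhibitory factor gene Lif had −0.97 (adjusted p = 0.901), with the highest MMTVRANK library at 7.74 CPM just under the lowest WT library at 7.84 CPM.

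Besides Crb3, 23 genes are described because they had the smallest p in either direction. They were taken from genes with groups that do not overlap and an average log2 CPM of at least 2 over the 12 libraries. None of the 23 passed, and their order is a description. Under DESeq2 all 12 lower genes, Crb3 included, and 6 of the 12 higher genes passed. As all were chosen for their p and separation in these libraries, neither count is independent support for them.

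Among the 12 lower genes, St14 encodes matriptase, a protease of the epithelial cell surface, and stood at 42.0, 40.2 and 38.1 CPM in MMTVRANK and 87.6, 64.8 and 75.5 CPM in WT replicates 1 to 3. The MMTVRANK libraries were nearly equal and lay well below the lowest WT library (log2 fold change −0.92, SE 0.15, adjusted p = 0.246). Spint1, which is not among the 12 but has the smallest p of the pan-luminal markers below, encodes an inhibitor of matriptase and stood at 9.66, 20.2 and 13.6 CPM against 43.1, 22.9 and 38.4 CPM (−1.27, SE 0.30, adjusted p = 0.584). Its groups nearly touch, at MMTVRANK replicate 2 and WT replicate 2. Rhov, an atypical small GTPase, stood at 0.679, 1.01 and 0.547 CPM in MMTVRANK and 2.08, 6.33 and 6.49 CPM in WT (−2.73, SE 0.40, adjusted p = 0.128). WT replicate 1 was the lowest of its group, and without it Rhov was called together with Crb3. Esyt3, an extended synaptotagmin of membrane contact sites, had a log2 fold change of −2.67 (adjusted p = 0.128) on levels under 3 CPM, with 6.85% of its exons overlapped by a gene on the other strand. Ehd4, which acts in endocytic recycling, had −0.81 (adjusted p = 0.512).

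Cdkn1a, the gene of the cell cycle inhibitor p21, was among the lower genes with little spread in either group. MMTVRANK replicates 1, 2 and 3 held 48.7, 38.0 and 42.5 CPM and WT replicates 85.4, 99.8 and 87.2 CPM. The lowest WT library was thus well above the highest MMTVRANK library (log2 fold change −1.08, SE 0.19, adjusted p = 0.246). Cdkn1a lies on chromosome 17 from 29090979 to 29100722, and none of its exon bases is shared with another gene. Id3, an inhibitor of basic helix-loop-helix factors induced by BMP signals, stood at 6.79, 7.66 and 12.6 CPM in MMTVRANK against 35.4, 34.5 and 23.8 CPM in WT (−1.79, SE 0.32, adjusted p = 0.289). Its relative Id1 had −1.01 (adjusted p = 0.861) with overlapping groups.

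Among genes of Wnt signalling, Lgr5, an R-spondin receptor and a marker of stem cells in several epithelia, stood at 18.8, 14.3 and 13.8 CPM in MMTVRANK and 63.8, 25.9 and 49.7 CPM in WT replicates 1 to 3. The WT group spreads more than the MMTVRANK group, with replicate 2 lowest (log2 fold change −1.57, SE 0.31, adjusted p = 0.391). Without WT basal replicate 2, Lgr5 was among 8 genes called. Wnt7b, a Wnt ligand, lay between 1.51 and 2.19 CPM in MMTVRANK and between 4.01 and 11.0 CPM in WT (−1.77, adjusted p = 0.432), with 6.61% of its exons overlapped by a gene on the other strand. Anxa1, a phospholipid-binding protein that restrains inflammation, had 36.1, 66.7 and 67.2 CPM in MMTVRANK and 146, 262 and 113 CPM in WT (−1.62, adjusted p = 0.391). Scin, which severs actin filaments, stood at 2.04, 1.77 and 1.72 CPM in MMTVRANK and 8.88, 42.3 and 5.21 CPM in WT (−3.35, adjusted p = 0.391). Among the WT libraries replicate 2 stands out as the high one. Over the alternative analyses the Scin log2 fold change lay between −3.78 and −1.92. Ctsh, a lysosomal protease, completes the 12 with −1.80 (adjusted p = 0.331).

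Most of these lower genes are at higher levels in luminal than in basal cells. The mean over the 6 luminal libraries exceeded that over the 6 basal libraries for 10 of the 12, all but Cdkn1a and Lgr5. Over all tested genes this held for 50.2%, over the 564 lower genes with an unadjusted p under 0.05 for 66.0%, over the 422 higher ones for 56.2%, and for 5 of the 12 higher genes described next. St14, for example, stood at 402 ± 53.9 CPM in WT luminal cells and Rhov at 90.5 ± 11.4 CPM (SD, n = 3). No test was made of these shares. The minimum level for the 12 genes was an average over all 12 libraries, so genes low in basal cells could enter through their luminal level. The lower genes were also chosen for a fall in basal cells, by a p whose spread is shared with the luminal libraries. Their share is thus partly set by the choice, and the share over all tested genes had no such minimum.

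The 12 higher genes had smaller fold changes for the most part. Serpinb9, an inhibitor of the protease granzyme B, had the smallest p among them: 76.4, 74.2 and 79.7 CPM in MMTVRANK and 44.2, 42.1 and 41.7 CPM in WT replicates 1 to 3. Both groups were tight and far apart relative to their spread (log2 fold change 0.85, SE 0.15, adjusted p = 0.246). The mouse genome holds close relatives of this gene, among which reads could be divided. Mkx, a homeobox factor known from tendon, stood at 21.8, 22.2 and 18.3 CPM in MMTVRANK and 7.72, 7.55 and 5.89 CPM in WT (1.56, SE 0.31, adjusted p = 0.391). In luminal cells it stood at 0.501 ± 0.132 CPM in MMTVRANK and 1.29 ± 0.266 CPM in WT, the other way round, and the difference between the effects, 2.91, did not pass (adjusted p = 0.127).

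Zfp120 and Zfp266, both zinc finger genes of a large family, had 1.92 (adjusted p = 0.302) and 0.67 (adjusted p = 0.432). Zfp266 stood at 105, 110 and 129 CPM in MMTVRANK and 71.2, 71.0 and 73.6 CPM in WT. Mocs2, an enzyme of molybdenum cofactor synthesis, had 1.18, Cep97, a centriole protein that holds back cilium formation, 1.13, and Tprkb, of the complex that modifies transfer RNA, 0.86. Ddt, a tautomerase related to the cytokine MIF, had 1.02, but part of its exons is shared with another gene on the same strand. Ccdc88a, the actin-binding protein girdin, Mfap3 and Msantd4 had 0.67, 0.83 and 0.82. Dnaic1, an intermediate chain of the dynein of motile cilia, had 17 counts in the MMTVRANK and 1 count in the WT libraries, a ratio of 17.3 with a 95% exact interval of 2.71 to 723 for counting error. Adjusted p for these 8 genes ranged from 0.570 to 0.652.

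**Figure D2:**
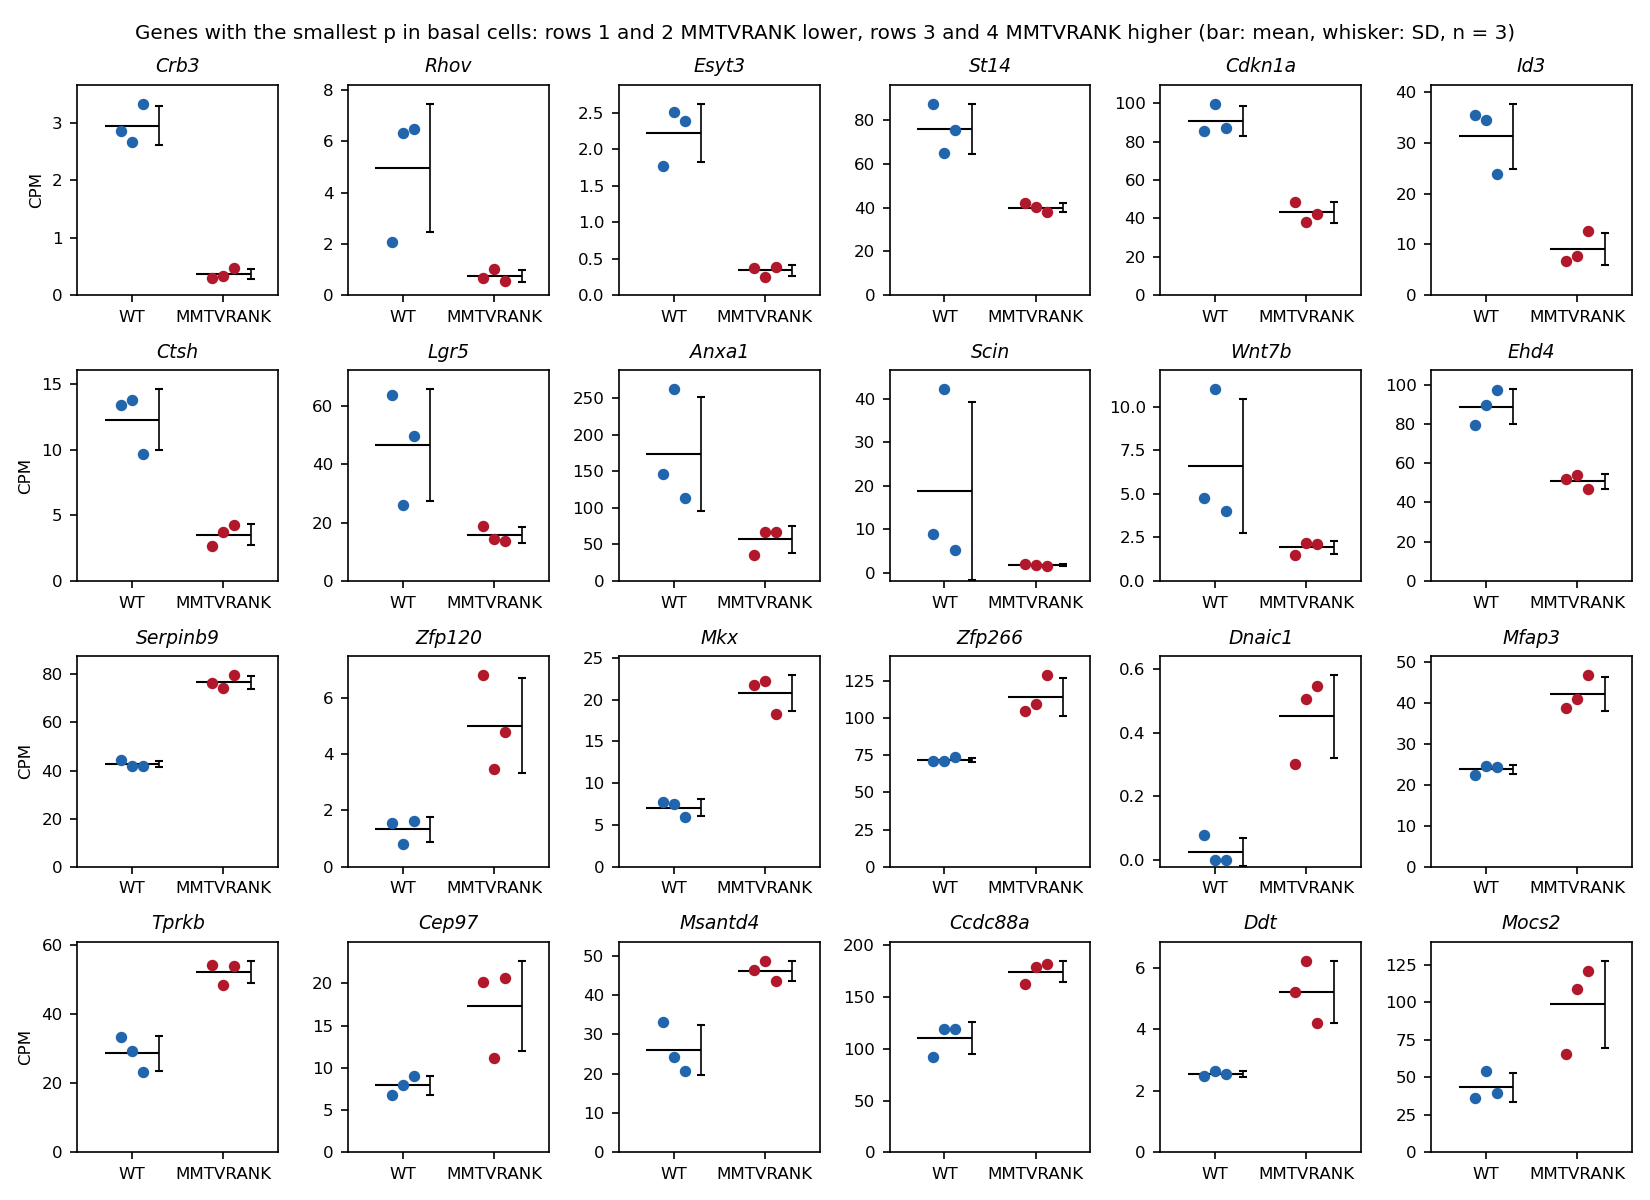
Level in CPM (vertical axes, one scale per gene) of the 12 lower and 12 higher genes in the 3 WT and 3 MMTVRANK basal libraries, with mean and SD. Each point is 1 library; Crb3, St14, Cdkn1a and Serpinb9 are tight in both groups, while the WT points of Scin and Lgr5 spread widely.

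Genes listed as markers shared by all luminal cells mostly had values below 0, with overlapping groups for 15 of 20. Of 20 pan-luminal genes tested, none passed, 2 had values above 0, and the median log2 fold change was −0.73, against 0.00 over all genes. An unadjusted p under 0.05 was reached by 8, all lower (3.09% of all genes), and 5 lay lower in every MMTVRANK library (4.52% of all genes). Krt18, a keratin of luminal cells, stood at 55.2, 45.1 and 42.4 CPM in MMTVRANK and 107, 74.7 and 95.3 CPM in WT replicates 1 to 3 (−0.96, SE 0.24, adjusted p = 0.652), and under DESeq2 it passed. Its partner Krt8 had overlapping groups, at 126, 103 and 95.2 CPM against 130, 165 and 99.2 CPM (−0.28, adjusted p = 1). Epcam, an epithelial adhesion molecule, had 139, 172 and 118 CPM against 203, 218 and 284 CPM (−0.72, adjusted p = 0.656). For Cldn4, a tight junction claudin, the log2 fold change was −2.90 (adjusted p = 0.656), with WT replicate 2 at 85.4 CPM beside 10.4 and 9.22 CPM in the other WT libraries.

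Summed over the 20 markers, the level was 2659, 2901 and 2384 CPM in MMTVRANK and 2830, 4153 and 2487 CPM in WT basal replicates 1 to 3, overlapping groups. The luminal libraries held 11078 to 24646 CPM. The listed genes Dsp and Tfap2c stood higher in basal than in luminal cells. Dsp alone held 1025, 1309 and 778 CPM in MMTVRANK and 1107, 2012 and 857 CPM in WT basal replicates 1 to 3. Its luminal means were 498 CPM in MMTVRANK and 713 CPM in WT. The basal sums are thus not a measure of luminal RNA alone. Elf5, which defines luminal progenitors, was near 0 in both groups, at 2.64, 0 and 1.25 CPM in MMTVRANK and 2.86, 0.575 and 1.37 CPM in WT. The median of the pan-luminal list was −0.59 to −0.85 over all alternatives. In bulk samples, fewer cells of a type and less RNA per cell cannot be told apart, and the part of luminal RNA in the results for Crb3, Rhov or St14 was not tested.

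Markers of single luminal subtypes had medians nearer to 0. Of 22 hormone-sensing markers, 3 had an unadjusted p under 0.05, all lower (3.09% of all genes), with a median of −0.43 (−0.24 without WT basal replicate 2 and −0.89 without MMTVRANK basal replicate 3). Tph1, the enzyme of serotonin synthesis in the gland, lay between 0.0755 and 0.704 CPM in MMTVRANK and between 0.575 and 7.52 CPM in WT (−3.19, adjusted p = 0.688), and Prlr, the prolactin receptor, had −1.21 (adjusted p = 0.901). Pgr, the progesterone receptor, overlapped between the groups (0.29, adjusted p = 1). Of 19 luminal progenitor markers, 2 were lower at that p, with a median of −0.30 (−0.15 without WT basal replicate 1 and −0.61 without MMTVRANK basal replicate 1). Plet1 led them with −2.35 (adjusted p = 0.768), at 131 CPM in WT replicate 2 and 6.34 to 16.7 CPM in the other 5 libraries. Kit, a receptor tyrosine kinase of progenitors, had −0.30 (adjusted p = 1).

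Milk genes were spread around 0: of 18 tested, 7 had values above 0 and the median was −0.13, and 0.13 without the libraries labelled WT replicate 2. The butyrophilin gene Btn1a1 stood at 0.453, 0.168 and 0.235 CPM in MMTVRANK and 5.63, 1.01 and 2.14 CPM in WT replicates 1 to 3, with no overlap (−3.30, SE 0.77, adjusted p = 0.622). Spp1, which encodes osteopontin, had −2.17 (adjusted p = 0.830), also without overlap. Csn3, a casein gene, had 0.62 with overlapping groups (adjusted p = 1). Lactoferrin, encoded by Ltf, had 2 counts in all MMTVRANK basal libraries and stood at 11.0, 0 and 5.89 CPM in WT replicates 1 to 3. WT replicate 2 thus lay with the MMTVRANK libraries, and without it Ltf was called. Slpi, a protease inhibitor of mucosal secretions, had the same arrangement, at 77.9, 93.3 and 114 CPM in MMTVRANK and 404, 70.9 and 505 CPM in WT, and it too was called without that library.

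Basal identity genes were spread around 0. Of 21 basal transcription factor and keratin genes, none passed or had an unadjusted p under 0.05, and the median was 0.06. Trp63, the master regulator of basal cells, stood at 703, 470 and 554 CPM in MMTVRANK and 496, 547 and 349 CPM in WT replicates 1 to 3 (0.31, SE 0.40, adjusted p = 1). Krt14 and Krt5, the basal keratins, overlapped, with −0.43 and −0.17, and Krt5 turned to 0.27 without the libraries labelled WT replicate 2. For Krt5, WT basal replicate 2 held 1875 CPM beside 925 and 927 CPM. Sox10 had −0.10 (adjusted p = 1). In 2 of the 21 every MMTVRANK library lay above every WT library, against 6.61% of all genes. Id4, a regulator of mammary stem cells, had 531, 419 and 597 CPM against 291, 380 and 397 CPM (0.53, adjusted p = 1). Lgr6, an R-spondin receptor, had 603, 633 and 842 CPM against 353, 587 and 405 CPM (0.63, adjusted p = 0.982).

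Contractile genes mostly had small positive values. Of 23 tested, 19 had values above 0 and the median was 0.24. In 12 of the 23 every MMTVRANK library lay above every WT library, against 6.61% of all genes, but none passed and none had an unadjusted p under 0.05. Myh11, the smooth muscle myosin heavy chain, stood at 10890, 10339 and 10169 CPM in MMTVRANK and 7139, 8461 and 7614 CPM in WT replicates 1 to 3. No WT library reached the MMTVRANK libraries (0.44, SE 0.66, adjusted p = 1). Acta2, smooth muscle actin, had 7520, 7208 and 9492 CPM against 6866, 6915 and 5899 CPM (0.30, adjusted p = 1). Actg2, enteric smooth muscle actin, had 261, 303 and 296 CPM against 167, 200 and 91.6 CPM (0.91, adjusted p = 0.952), and Mylk, the kinase that starts contraction, 2169, 2070 and 2484 CPM against 1490, 1772 and 1526 CPM (0.49, adjusted p = 1). Oxtr, the oxytocin receptor through which milk ejection is triggered, overlapped (0.24, adjusted p = 1).

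The fit uses 1 spread per gene for basal and luminal libraries, and Myh11 stood at 48.5 ± 56.6 CPM in MMTVRANK luminal cells (SD, n = 3). With the basal libraries fitted alone its log2 fold change was 0.40 with an SE of 0.17 (edgeR, adjusted p = 0.910). The summed contractile level was 39153, 38891 and 41629 CPM in MMTVRANK and 31464, 33052 and 31467 CPM in WT, groups that do not overlap. The list median was 0.17 to 0.29 over all alternatives.

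Among 30 genes of the basement membrane and adhesion, 21 had values above 0 (median 0.16), and 8 lay higher and 2 lower in every MMTVRANK library, against 6.61% and 4.52% of all genes. Itgb4, the integrin subunit of hemidesmosomes, was lower, at 83.4, 130 and 76.8 CPM against 192, 184 and 167 CPM (−0.90, SE 0.25, adjusted p = 0.652), and so was the laminin chain gene Lama5 (−0.53, adjusted p = 0.869). Lamb2, another laminin chain, was higher, at 301, 328 and 363 CPM against 243, 237 and 265 CPM (0.41, adjusted p = 0.897). Of 16 markers used for mammary stem cells, Lgr5 was the 1 with an unadjusted p under 0.05, lower as in 3.09% of all genes. The list median was 0.01. Procr, a marker of multipotent basal cells, stood at 4.98, 6.31 and 6.33 CPM against 11.4, 9.20 and 12.6 CPM (−0.91, SE 0.86, adjusted p = 1), with no overlap. The Notch ligand Jag1 was higher in each MMTVRANK library (0.42, adjusted p = 0.977).

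**Figure D3:**
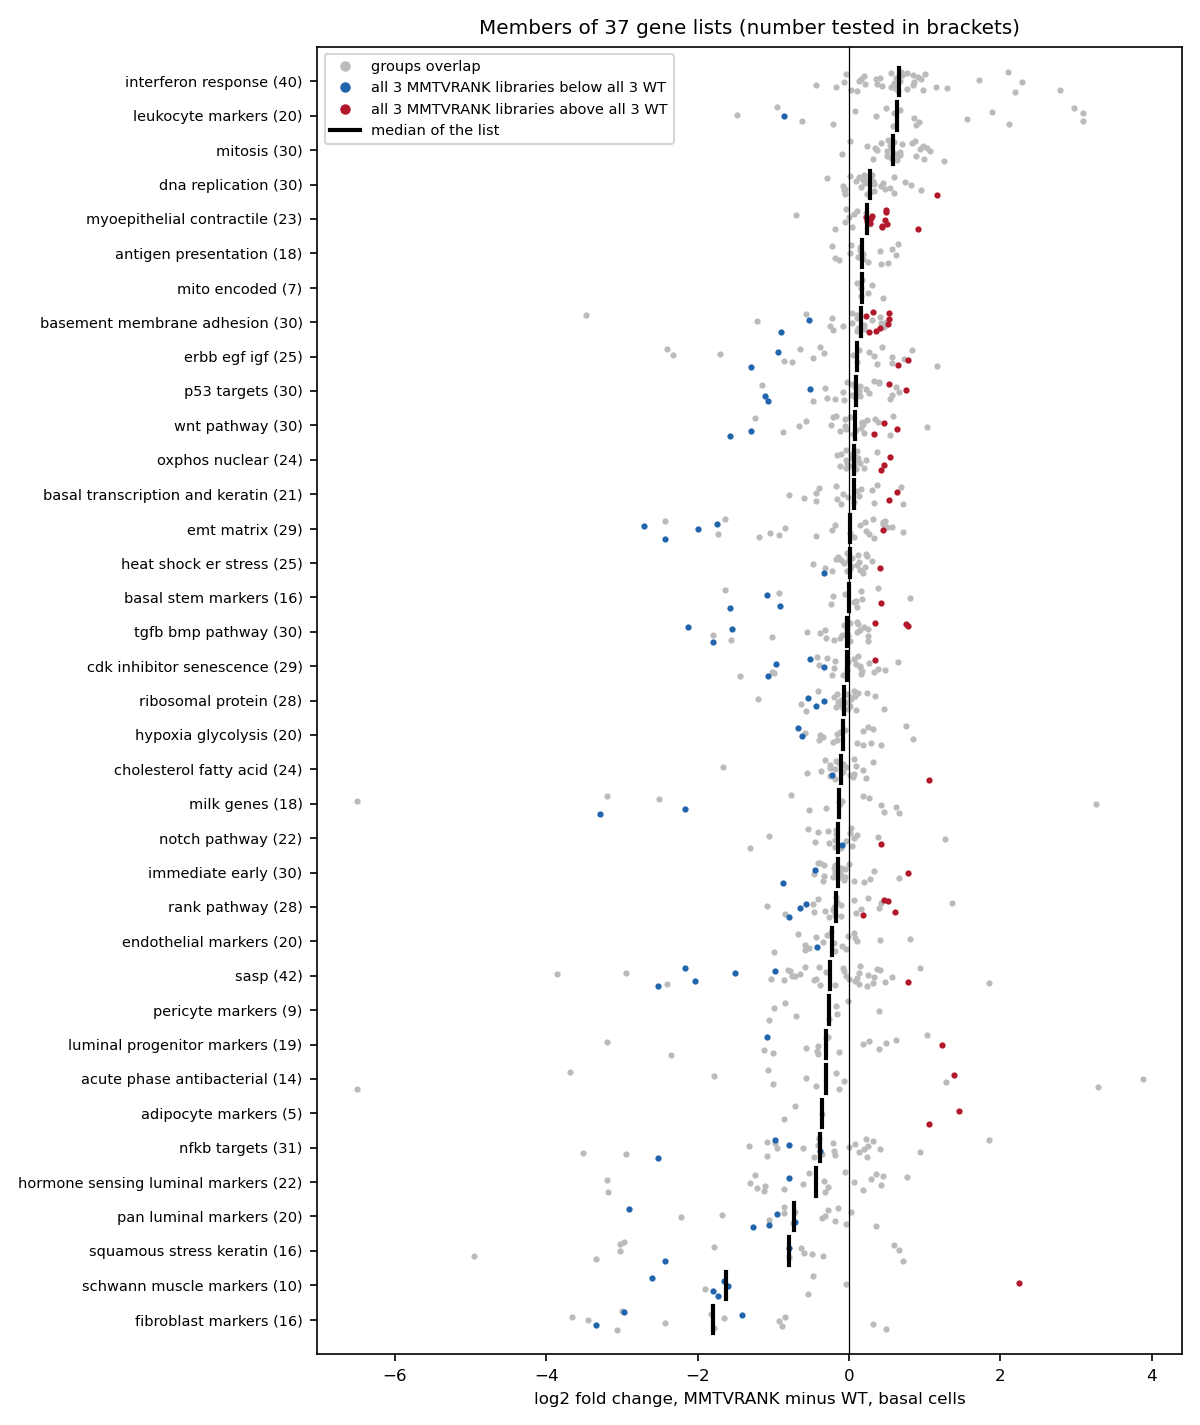
Log2 fold change in basal cells (horizontal axis) of the tested members of 37 gene lists (rows, ordered by median), with members coloured where the genotypes do not overlap. Pan-luminal markers sit mostly left of 0 with a median of −0.73, and contractile genes cluster just right of 0 with 12 of 23 coloured.

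Senescence is named in the title of the series. Of 29 cell cycle inhibitor and senescence genes, none passed, 13 had values above 0 and the median was −0.03. At an unadjusted p under 0.05 there were 3, all lower (3.09% of all genes): Cdkn1a, Id1 and Gadd45b, a stress gene at 99.3, 87.8 and 97.8 CPM in MMTVRANK and 249, 149 and 157 CPM in WT (−0.96, SE 0.21, adjusted p = 0.538). Cdkn2a, whose products include the cell cycle inhibitor p16, had a few counts per library. Its level was 0.226, 0.0842 and 0.313 CPM against 0.154, 0.935 and 0.171 CPM (−0.995, adjusted p = 1). These counts are per gene and do not tell its transcripts apart. WT replicate 2 was the high library, and without the libraries labelled WT replicate 2 the value was 0.36.

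Of 42 secreted factors associated with senescence, 25 had values below 0, the median was −0.25 (−0.067 without WT basal replicate 3), and 7 were lower and none higher at an unadjusted p under 0.05, against 3.09% and 2.31% of all genes. They included Csf3, the granulocyte growth factor, with 2.64, 3.28 and 1.17 CPM against 7.87, 5.54 and 6.75 CPM (−1.50, adjusted p = 0.688), and Il33, an alarmin, with −2.03 (adjusted p = 0.811). Among 30 targets of p53, 19 had values above 0 (median 0.10). At an unadjusted p under 0.05, 3 were lower and 1 higher, against 3.09% and 2.31% of all genes. Besides Cdkn1a, the lower ones were Plk3 (−0.51, adjusted p = 0.855) and Bbc3, the apoptosis gene Puma (−1.11, adjusted p = 0.901). The higher one was Polk, a translesion polymerase (0.52, adjusted p = 0.901). Cdkn1a counts in both lists.

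Levels of proliferation genes spread most among the WT libraries. Of 30 mitosis genes, 29 had values above 0 and the median was 0.59, but none had an unadjusted p under 0.05 and none was free of overlap. Mki67 stood at 500, 434 and 219 CPM in MMTVRANK and 157, 532 and 19.4 CPM in WT replicates 1 to 3, so that the highest and the lowest library were both WT. The summed mitosis level was 1644, 1326 and 741 CPM against 579, 1603 and 75.2 CPM, with MMTVRANK replicate 1 and WT replicate 2 highest and WT replicate 3 lowest. The list median was 0.09 without WT basal replicate 3 and 1.76 without the libraries labelled WT replicate 2. DNA replication genes had 25 of 30 values above 0 (median 0.28), and that median was −0.02 without WT basal replicate 3 and 1.04 without WT basal replicate 2. Rfc4, a subunit of the clamp loader, was the 1 member without overlap, higher as in 6.61% of all genes (1.17, adjusted p = 0.901).

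Signalling lists had medians between −0.14 and 0.10. In each, more members were lower than higher at an unadjusted p under 0.05, as over all genes (3.09% and 2.31%). Of 30 Wnt pathway genes the median was 0.08, with Lgr5 and the ligand gene Wnt11 (−1.29, adjusted p = 0.869) lower and Lgr4 higher. Axin2, a standard target of Wnt signals, overlapped (0.17, adjusted p = 1). Of 22 Notch pathway genes the median was −0.14; Hes1, a Notch target, had −1.31 (adjusted p = 0.711), with WT replicate 2 at 17.3 CPM inside the MMTVRANK range of 10.9 to 20.5 CPM. In the list of 30 TGF-beta and BMP genes (median −0.02), Id3 and Inhbb, an activin subunit, were lower and the BMP receptor gene Bmpr1b was higher (0.76, adjusted p = 0.901). Inhbb had −1.55 (adjusted p = 0.778), with WT replicate 1 at 21.1 CPM beside 4.82 and 4.53 CPM. Of 25 EGF, ErbB and IGF genes (median 0.10), 4 were lower at an unadjusted p under 0.05, against 3.09% of all genes. Hbegf, a ligand of the EGF receptor, had 10.9, 27.6 and 23.9 CPM against 37.2, 72.8 and 43.0 CPM (−1.29, SE 0.35, adjusted p = 0.652), and Erbb3 had −1.71 with overlapping groups (adjusted p = 0.830).

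Interferon response genes had 36 of 40 values above 0 and a median of 0.66, yet no member was free of overlap and none passed. Gbp7, a guanylate-binding protein, had 42.3, 208 and 153 CPM in MMTVRANK and 32.7, 50.9 and 98.5 CPM in WT, so that the 2 highest libraries were MMTVRANK and WT replicate 3 came next (1.15, adjusted p = 0.917). Oasl1 had 2.20 (adjusted p = 0.901) and the transcription factor gene Irf1 0.35 (adjusted p = 0.901). The list median was 0.11 without MMTVRANK basal replicate 2 and 1.47 without WT basal replicate 3. Antigen presentation genes had 15 of 18 values above 0, a median of 0.17 and no member with an unadjusted p under 0.05. Acute phase and antibacterial genes had 4 of 14 values above 0 and a median of −0.31, with Ltf and Slpi leading, and the median was 0.20 without WT basal replicate 3.

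Medians of the stress and housekeeping lists were close to 0. Of 30 immediate early genes, 23 had values below 0 (median −0.15). Among them Maff, a small Maf factor, had 123, 225 and 235 CPM in MMTVRANK and 257, 340 and 474 CPM in WT (−0.88, adjusted p = 0.702). The phosphatase gene Dusp1 had −0.45 (adjusted p = 0.842), and both were without overlap. Medians were 0.01 for heat shock and endoplasmic reticulum stress, −0.08 for hypoxia and glycolysis, −0.11 for cholesterol and fatty acid synthesis, 0.07 for nuclear and 0.17 for mitochondrially encoded respiratory genes, and −0.07 for ribosomal proteins. None of these 6 lists had more than 2 members with an unadjusted p under 0.05. All 7 mitochondrially encoded genes tested had values above 0, with overlapping groups. Another 6 of the 13 listed, mt-Co2 and mt-Co3 among them, stood at 0 in every basal and luminal library. The median thus covers only part of the mitochondrial genes, and why the others were at 0 was not tested. In the cholesterol list, Dhcr7, which makes cholesterol from its last precursor, was higher without overlap (1.06, adjusted p = 0.790).

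Squamous and stress keratin genes brought out WT basal replicate 2. Of 16 tested, 3 had values above 0 and the median was −0.79. Sprr1a, of the cornified envelope, stood at 117 CPM in that library and between 0 and 3.21 CPM in the other 5, and Krt6a at 21.3 CPM against 0.337 to 2.08 CPM. Dsg3, a desmosomal cadherin of stratified epithelia, held 94.0 CPM there and 0.598 to 6.88 CPM elsewhere. Krt80 and Sfn were lower in MMTVRANK without overlap (−2.44 and −0.80, adjusted p = 0.652 and 0.689), with WT replicate 2 highest in both. Without the libraries labelled WT replicate 2 the list median turned to 0.54.

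Markers of other cell types varied by library. Fibroblast markers summed to 1193, 935 and 1100 CPM in MMTVRANK and 4471, 1104 and 671 CPM in WT basal replicates 1 to 3, so WT replicate 1 alone was high. Of 16 tested, 14 had values below 0 and the median was −1.80, but −0.05 without that library. Lum, a matrix proteoglycan of fibroblasts, stood at 85.3 CPM in it and between 1.43 and 6.40 CPM in the other 5. The same library was highest in matrix genes of the epithelial to mesenchymal list, such as the collagen gene Col6a1, at 175 CPM against 8.42 to 38.3 CPM elsewhere, and that list had a median of 0.01.

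Schwann cell and muscle markers summed to 393, 155 and 433 CPM in MMTVRANK and 1199, 519 and 490 CPM in WT, without overlap. Mbp, a myelin protein, lay lower in every MMTVRANK library (−1.72, adjusted p = 0.864). The list median was −1.62, and −0.84 without WT basal replicate 1. Leukocyte markers were scarce in basal libraries, with sums of 23.7 to 57.8 CPM in WT and a highest sum in MMTVRANK replicate 3. The luminal libraries held 129 to 486 CPM. Of this, the listed gene Lcp1 alone averaged 145 CPM in MMTVRANK and 116 CPM in WT luminal cells, against 3.93 to 13.5 CPM in the basal libraries. Ptprc, the common leukocyte antigen CD45, had 12.2 CPM in MMTVRANK basal replicate 3 and 0.154 to 2.78 CPM in the other 5. Its luminal level averaged 1.33 CPM in WT, and was 0.815, 0.383 and 48.6 CPM in MMTVRANK replicates 1 to 3. Without MMTVRANK basal replicate 3 the leukocyte list median went from 0.64 to −0.70. Endothelial, pericyte and adipocyte markers had medians of −0.22, −0.26 and −0.36, and none of their members had an unadjusted p under 0.05. The part of any of these cell types in the genotype results was not tested.

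**Figure D4:**
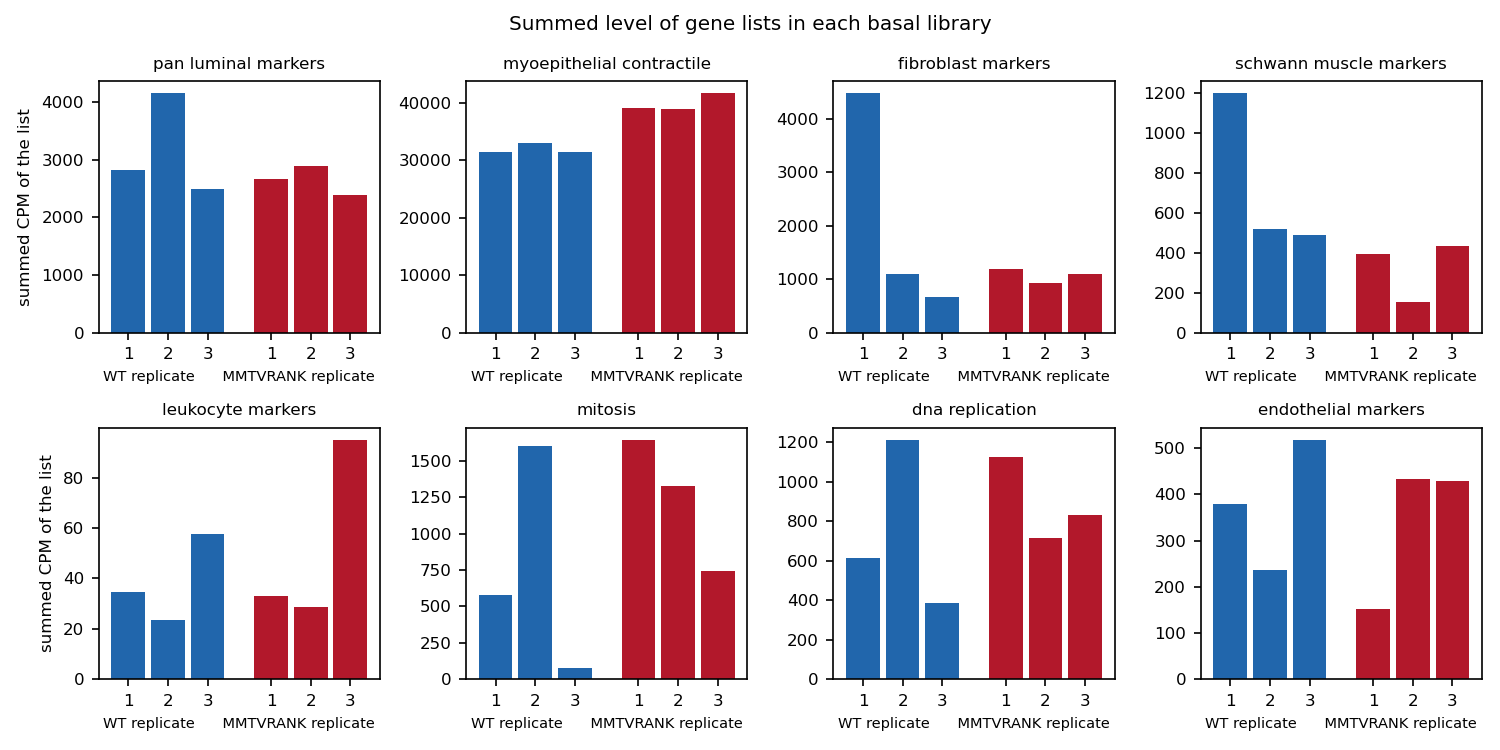
Summed CPM (vertical axes, from 0) of 8 gene lists in each WT (blue) and MMTVRANK (red) basal library, 1 bar per library. Contractile genes are higher in all 3 MMTVRANK libraries, fibroblast markers stand out in WT replicate 1 at 4471 CPM, and mitosis genes are lowest in WT replicate 3 at 75.2 CPM.

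The genotype effect in basal cells was set against that in luminal cells by a contrast of the 2 effects in the same fit. For 1 gene of 18236 (0.00548%), Epb41l3, the effects differed at an adjusted p under 0.05, and 1410 (7.73%) had an unadjusted p under 0.05. Epb41l3, which links membrane proteins to the actin skeleton, stood at 95.9, 78.3 and 72.9 CPM in MMTVRANK basal and 49.0, 86.0 and 32.7 CPM in WT basal replicates 1 to 3, overlapping at WT replicate 2. Luminal levels were 2.87 ± 0.844 CPM in MMTVRANK and 26.1 ± 2.37 CPM in WT (SD, n = 3). The basal log2 fold change was 0.56 (adjusted p = 0.948), the luminal one −3.18 (adjusted p = 0.00921), and the difference 3.74 (adjusted p = 0.0420). Basal and luminal libraries of one genotype and number deviated together, and with each such pair as a block, a fit chosen after seeing the data, the difference was 3.87 (edgeR, adjusted p = 0.111) and no gene was called, with 1500 at an unadjusted p under 0.05. The call also ended with the replicate number alone as a block (adjusted p = 0.107), under limma-voom and without robust estimation, and no gene was called in 7 of the 12 fits with 1 library left out.

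Next in order, and short of the threshold, came differences with the basal effect above the luminal one for Csn3 (5.31), the collagen gene Col11a1 (3.32), Mkx (2.91) and Rusc2 (1.74), each at adjusted p = 0.127. In that order the luminal log2 fold changes were −4.69, −2.55, −1.35 and −1.43 (adjusted p = 0.0285, 0.0387, 0.131 and 0.0333). The basal ones were 0.62, 0.77, 1.56 and 0.32, and none of them passed. Col11a1 was higher in every MMTVRANK basal library, at 408, 504 and 489 CPM against 265, 356 and 200 CPM, and stood at 3.40 ± 0.497 CPM in MMTVRANK and 19.9 ± 12.7 CPM in WT luminal cells. With the basal effect below the luminal one were Crb3, Csrp2 (−3.44), the Wnt inhibitor gene Apcdd1 (−3.28), Abi3bp (−4.01) and Edn1 (−4.47), with adjusted p from 0.0944 to 0.278. Of these, Apcdd1 passed in luminal cells (log2 fold change 2.62, adjusted p = 0.0458). Edn1, which encodes endothelin 1, a peptide that makes smooth muscle contract, stood at 1.21, 1.43 and 0.782 CPM in MMTVRANK basal and 8.64, 14.4 and 3.67 CPM in WT basal replicates (−2.96, SE 0.66, adjusted p = 0.549). Luminal levels were 10.8 ± 5.59 CPM in MMTVRANK and 3.79 ± 2.56 CPM in WT.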

How the data were processed

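RNA came from mammary cells sorted on CD24 and CD49f, and libraries from a stranded low-input total RNA kit, per the labels' protocols. The authors deposited raw read counts per gene symbol, made with featureCounts 1.5.2 on GENCODE annotation without a strand option, per the file headers, so overlapping genes on opposite strands share reads. STAR 2.6.1b, Subread 1.5 and GRCm38.p6 are named in the submitters' processing notes. The deposited summed exon length, in base pairs, served as description only.

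Genes were kept by filterByExpr of edgeR 4.0.16 (count minimum 10), which left 18236 of 53735 symbols (15946 were at 0 throughout). TMM-scaled counts of all 12 libraries and 4 groups entered a single robust quasi-likelihood fit (common biological coefficient of variation 0.450, 8 residual degrees of freedom) in R 4.3.3. SEs were derived from the fold change and its F statistic. Alternatives used DESeq2 1.42.0, limma 3.58.1, other filters and scaling, the basal libraries alone, a replicate block and each library left out. Within a genotype, deviations of the basal and luminal libraries of one replicate number correlated at 0.11 to 0.26 in MMTVRANK and 0.17 to 0.38 in WT, each best with its own number, so these numbers were taken to pair them, from the data alone. The fit over 12 libraries treats them as independent. No 2 libraries were duplicates by a chi-square test. Of 17 summed list levels, two-sided exact permutation tests gave no p below 0.1, the smallest that 3 against 3 allows, and none below 0.85 after adjustment. The code was tested on simulated data.

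Named genes were the 12 smallest p in each direction (average log2 CPM of 2 or more, no predicted or clone name, groups without overlap), 24 genes whatever their values, up to 4 members with the smallest p of each list described, and the 5 smallest p in each direction for the difference of effects. There were 37 lists with 829 distinct genes, 769 of them tested, and 83 shared between lists. The members and lists were chosen with earlier results of these data known. Promoters came from RefSeq.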

Additional observations from a re-analysis of the deposited data

Results flagged for a closer look

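The genotype effect on Epb41l3 differed between basal and luminal cells: the basal minus the luminal log2 fold change was 3.74 (edgeR quasi-likelihood test of the difference, adjusted p = 0.0420, n = 3 per group). The luminal log2 fold change was −3.18 (edgeR, adjusted p = 0.00921) and the basal one 0.56 (edgeR, adjusted p = 0.948). For the difference, Epb41l3 was the 1 gene past the threshold of 18236, and 1410 had an unadjusted p under 0.05. With basal and luminal libraries of one number paired, the difference was 3.87 (edgeR, adjusted p = 0.111).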

How the results depend on the processing

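The basal comparison called 1 gene. The count was 66 under DESeq2, 0 under limma-voom, 349 without a filter on low counts, 0 with the 6 basal libraries alone, and 4 without both libraries labelled WT replicate 2. Chosen after seeing the data, DESeq2 and limma-voom on the 6 basal libraries alone gave 49 and 0. It lay between 0 and 8 with each library left out: 0 without MMTVRANK basal replicate 1 or 2, 2 without WT basal replicate 1, 8 without WT basal replicate 2 and 6 without WT basal replicate 3. For the difference of effects the count of 1 became 140 under DESeq2, 0 under limma-voom, 776 without a filter, 0 without robust estimation, 3 without both libraries labelled WT replicate 2, and 0 to 7 with each library left out, 7 without MMTVRANK luminal replicate 1. The causes were not tested.

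Some log2 fold changes of genes named whatever their values changed sign. Without both libraries labelled WT replicate 2, Krt5 had 0.27, Oxtr −0.017 and Cdkn2a 0.36. Over the alternative analyses together, the ranges were −5.33 to 5.75 for Tnfsf11, −0.33 to 0.27 for Krt5, −0.017 to 0.44 for Oxtr, −1.38 to 0.36 for Cdkn2a, −1.30 to 0.48 for Elf5 and −0.069 to 0.57 for Axin2.

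The replicate numbers did not pair all basal libraries across the genotypes. Correlations of same-numbered deviations were 0.41, −0.05 and 0.16. MMTVRANK basal replicate 2 correlated best with WT number 3, and replicates 1 and 3 with their own numbers. With the number as a block the basal count was 1 (0 with the basal libraries alone), the count for the difference 0, and Tnfsf11 −0.15. With a block for each genotype and number, which pairs basal with luminal libraries, the count for the difference was also 0. Between luminal libraries of one number the correlations were 0.56, 0.11 and 0.42, and each MMTVRANK luminal library correlated best with its own WT number.

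Low counts limit Crb3, Tnf, Cdkn2a and Tnfsf11. At 3 libraries per group, an exact permutation test cannot go below 0.1.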
